A study of Mus musculus with 30 samples.

Results

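The vessel arrays of a mouse angiotensin II time course are described here: the arrays of day 3 and day 7 (late) against those of day 0 and day 1 (early). They are the 4 arrays whose titles name vessel, out of 30 arrays of brain, heart, kidney and vessel in the series, and each day is a single array. Male C57BL/6 mice, 8 to 10 weeks old, received angiotensin II in Ringer's solution from implanted osmotic pumps at 1500 ng per kg per min for 1, 3 or 7 days, and the day 0 array is the untreated time point. The labels do not name the vessel, do not say whether a day 0 mouse carried a pump, and do not say whether RNA of several mice was pooled. All values are probe set intensities on Affymetrix Mouse Genome 430 2.0 arrays, so a level is compared only between arrays for the same gene.

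Angiotensin II is the effector peptide of the renin-angiotensin system. It contracts vascular smooth muscle through the type 1 receptor, and sustained infusion raises blood pressure. The arterial wall is layered: endothelium faces the blood, smooth muscle with elastic lamellae forms the media, and fibroblasts, nerves, macrophages and surrounding fat form the adventitia and the tissue beyond it. Wall thickening under angiotensin II is known to involve collagen and elastin deposition, cell division and entry of monocytes.

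A gene was called when the mean of log2(intensity + 16) over the late arrays differed from that over the early arrays by at least 1, that is 2-fold, and both late arrays lay on the same side of both early arrays. Of 13744 genes tested, 521 (3.79%) were called higher late and 121 (0.88%) lower, and the median difference of all tested genes was -0.004. Non-overlap alone is common with 4 arrays: 28.9% of tested genes had both late arrays above both early ones and 29.4% had both below, at any size. With 2 arrays against 2 of different days no exact two-sided permutation test can go below 0.333, so the calls carry no p-value and rest on size and order. Since each day is 1 array, the difference between days 0 and 1 or between days 3 and 7 mixes time with the spread between samples. Counts of members with an array left out are given where they turn on that array. A gene with several probe sets is given by its brightest one. Where the mean difference of all its probe sets was over 1.5 times smaller, or ended the call, that mean is given beside the difference or the call, and with such means 2.34% of tested genes were called higher. Tested genes exceeded the 40th percentile of all intensities on 2 or more of the 4 arrays, and 50 of the 521 did so on the late arrays alone. For these the filter favours a rise, and counts of called members are descriptions. Over all tested genes the share called higher was 4.13% without day 0, 4.24% without day 1, 4.01% without day 3 and 4.47% without day 7, and 1.09% were called lower without day 7. Between the early arrays 198 tested genes differed by at least 2-fold, and between the late arrays 312 did.

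The labelled tissue carried the defining markers of smooth muscle on all 4 arrays. Myh11, smooth muscle myosin heavy chain, read 5057, 2830.4, 2766 and 2484 on days 0, 1, 3 and 7 against a highest heart reading of 386, and Cnn1, calponin, read 2363, 1650.2, 1653 and 1700.2 against a highest heart reading of 155. The endothelial marker Pecam1 read 243, 222, 258 and 225, close to its heart median of 230.4, and the adventitial fibroblast marker Pi16 read 1051, 556, 882 and 912. The arrays also carried RNA of other tissues, in amounts that differed between days, and these values come before the results because several gene groups move with them.

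Brown fat RNA was present on every array. Ucp1, the uncoupling protein that lets brown fat make heat, read 22424, 21637, 19400.4 and 11558 on days 0, 1, 3 and 7, whereas its heart median was 31.96. It was lowest on day 7, and the late minus early difference was -0.56 on the log2 scale, short of the 2-fold rule. The general adipocyte gene Adipoq, which encodes adiponectin, read 11486, 12769, 10871 and 9496.

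Heart muscle RNA was high on days 0 and 7, lower on day 1 and nearly gone on day 3. Myh6, the alpha cardiac myosin heavy chain, read 4366, 2415, 324 and 3712, which is 29.3%, 16.2%, 2.17% and 24.9% of its heart median. Its late minus early difference was -1.54, or -0.73 over both probe sets. Markers of atrial muscle followed it: Myl7 read 3929.6, 2024, 199.7 and 3146 and Sln, sarcolipin, read 1928, 975, 95.3 and 1765, while Myl2, the ventricular regulatory light chain, stayed between 65.1 and 142 against a heart median of 20899. Of 24 heart muscle markers tested, 0 were called in either direction, and the list median was -0.71. Without the day 7 array, 16 of 24 would have been called lower.

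Liver RNA was present on days 0 and 7. Alb, serum albumin, read 1128, 50.3, 61.2 and 509, and Ttr, transthyretin, read 1275, 36.4, 50.8 and 581. Both were low on days 1 and 3. The list of 20 tested liver markers had a median of -0.44, with 1 member called higher (Arg1, an arginase that macrophages also make) and 1 called lower (Hpd, a tyrosine-degrading enzyme). The shares over all tested genes were 3.79% higher and 0.88% lower.

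Neuronal RNA was concentrated on the day 3 array. Npy, neuropeptide Y of sympathetic neurons, read 36.4, 44.1, 2296 and 159.8, Th, tyrosine hydroxylase, read 37.1, 46.1, 548 and 64.9, and Stmn2, a microtubule regulator of neurons, read 42.9, 57.9, 843 and 94.1. Day 3 stood far above the other days for each of them. Of 15 neuron and ganglion markers tested, 10 were called higher late, and 4 were called without the day 3 array. Of the 10, 4 had passed the filter through the late arrays alone. The summed intensity of the neuron list was 558, 641, 8589 and 1124 on days 0, 1, 3 and 7. The Schwann cell genes Ngfr, at 41.9, 50.8, 407 and 54.5, and Cdh19, at 28.5, 25.2, 157 and 40.5, had the same day 3 peak. The Ngfr difference was 0.51 over its 3 probe sets. Of 9 peripheral nerve markers tested, these 2 were called higher and S100b was called lower, against 3.79% and 0.88% of all tested genes. S100b read 235, 289, 116 and 126, a difference of -1.02 that was -0.997 over both probe sets. The club cell gene Scgb1a1 of the airway read 15.9, 794, 17.00 and 19.7, high on day 1 only, and was looked at after its values were seen.

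**Figure D1:**
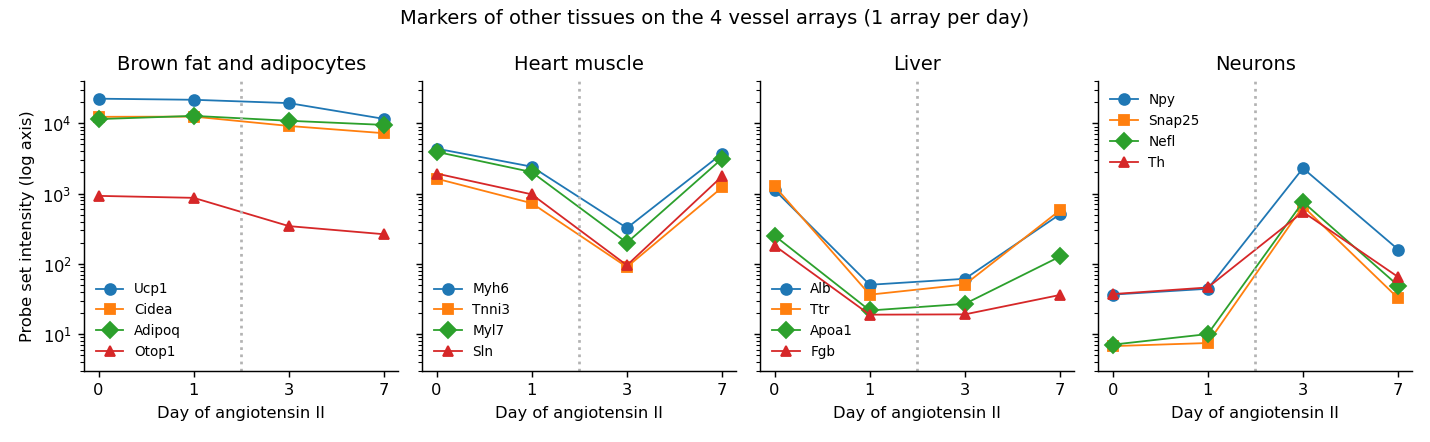
Intensity of 4 markers each of brown fat and adipocytes, heart muscle, liver and neurons on the 4 vessel arrays, by day of angiotensin II, on a log axis; the dotted line separates the early from the late arrays and each point is a single array. Fat markers were high throughout, Myh6 dipped to 324 on day 3, Alb was high on days 0 and 7, and Npy peaked at 2296 on day 3.

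In the late vessel arrays most tested members of the collagen, elastic fibre, injury-associated matrix, macrophage and cell division lists were called higher, as were 11 of 26 chemokines and cytokines. Under some alternatives given below, only a minority of the collagen, elastic fibre, macrophage and cell division lists was called. Calls in the brown fat, fat synthesis and fatty acid oxidation lists were all lower, but were few, at 4 of 13, 5 of 24 and 3 of 28 members. The genes of the smooth muscle contractile apparatus and of endothelial identity held no called member.

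The rises were larger than the falls. 68 genes were at least 4-fold higher late and 0 were at least 4-fold lower. In 430 of the 521 risers days 3 and 7 lay within 2-fold of each other, 15 were at least 2-fold higher on day 7 and 76 at least 2-fold higher on day 3. Of those 76, 42 had a brain median at least 4 times both the heart and the kidney median. So had 78 of all 521 risers and 5.34% of all tested genes. The 76 were chosen by day 3 standing above day 7, so a shared day 3 peak follows from the choice. The part of neuronal RNA in these rises was not tested. In every bulk tissue comparison that follows, fewer cells of a type and less RNA per cell cannot be told apart.

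**Figure D2:**
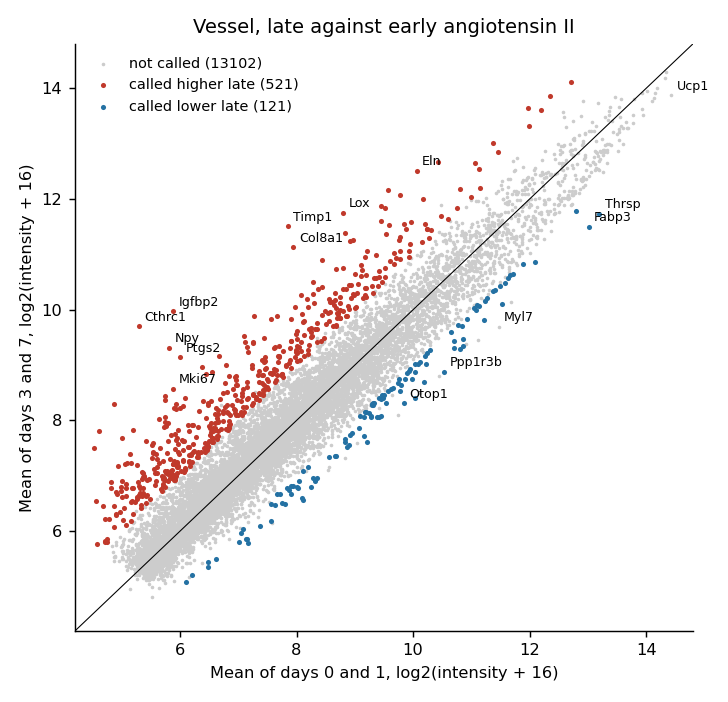
Mean log2(intensity + 16) of the day 3 and day 7 arrays against that of the day 0 and day 1 arrays for the 13744 tested genes, with the 521 genes called higher in red and the 121 called lower in blue; the line marks equality. Cthrc1, Igfbp2 and Timp1 lie farthest above the line, and Ppp1r3b lies among the genes farthest below it.

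The largest difference of all tested genes was that of Cthrc1, a secreted protein of injured arteries and activated fibroblasts. It read 24.1, 22.6, 625 and 1073 on days 0, 1, 3 and 7, a difference of 4.41. Both early readings lay under the 40th percentile of their arrays (25.4 and 25.1), so the gene passed the filter through the late arrays alone and no fold is given. Igfbp2, which binds insulin-like growth factors, followed at 35.6, 51.2, 706 and 1375, a difference of 4.09. Timp1, an inhibitor of matrix metalloproteinases, read 149.8, 307, 2771 and 3038, a difference of 3.66. Day 1 already stood above day 0 for Timp1, but both late arrays were several times higher than day 1. Itih4, an acute phase protein, read 697, 787, 2759 and 7481, and S100a4, a calcium-binding protein of fibroblasts and macrophages chosen after its values were seen, read 573, 813, 3218 and 4343.

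Elastic fibre genes held calls in 1 direction. Of 13 tested, 7 were called higher and 0 lower, against 3.79% and 0.88% of all tested genes, and the median difference was 1.04. Eln, the tropoelastin gene, read 1284, 864, 6401 and 5293, a difference of 2.45. Lox, the lysyl oxidase that cross-links elastin and collagen, read 513, 362, 2925 and 4049, a difference of 2.95. For both genes day 1 was the lowest of the 4 arrays and the late arrays were several times above day 0. Fbln2 (1.63, or 0.84 over both probe sets), Mfap5 (1.27), Mfap4 (1.26) and Fbln5 (1.25, or 0.61 over both) were also called. Mfap2 and Ltbp4 were not, at 145, 123, 122 and 129 and at 180.3, 120.4, 121 and 113. Without the day 1 array the count was 4 of 13, and with the mean of all probe sets 4.

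Collagens and their processing enzymes moved together: 21 of 29 tested members were called higher, against 3.79% of all tested genes. All 29 had a positive difference, with a median of 1.23. Col8a1, a short-chain collagen made by vascular cells after injury, read 212, 250.2, 1737 and 2849.9, a difference of 3.18. Col12a1, a collagen of fibril surfaces, read 75.2, 96.6, 343 and 909.9, a difference of 2.51 that was 0.77 when all 4 of its probe sets were averaged. The day 7 array was the higher of the late pair for both.

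Among fibrillar collagens Col5a1 read 614, 355, 2207 and 2615 and the abundant type I chain Col1a1 read 1150.2, 641, 4002 and 4638, differences of 2.32 and 2.30. Col6a3, of the microfibrillar type VI, read 949.7, 538, 3381 and 3928. Each of these was lower on day 1 than on day 0 and higher than day 0 on both late days. The basement membrane chains Col4a1 (2759.7, 2139, 3819.9 and 4477) and Col4a2 (2037, 1706, 2491 and 2590.2) were not called. Col4a5 (1.04) and Col18a1 (1.03, or 0.91 over both probe sets), also of basement membranes, were called higher. Plod2, which hydroxylates lysine for cross-links, differed by 2.05, and P4ha2, a prolyl hydroxylase, by 1.22. The low day 1 array bears on the count: 13 of 29 collagen genes were called without it and 21 without day 0. The median of the list on day 1 was -0.50 relative to day 0, against 0.84 on day 3 and 1.07 on day 7. The smooth muscle contractile list had a like dip on day 1, with a median of -0.58, and the part of tissue content in these differences was not tested.

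Matricellular and activated fibroblast genes held 18 called members of 28 tested, all higher, against 3.79% of all tested genes. The median was 1.30. Thbs1, a thrombospondin that activates latent TGF beta, read 38.7, 51.8, 180.0 and 426, a difference of 2.27. Tnc, the matrix glycoprotein tenascin C, read 199, 278, 979.9 and 1100.3, a difference of 2.07 that was 1.04 over both probe sets, and Postn, periostin, read 3257, 2138, 8126 and 8306. Each of these was called, which requires both late arrays above both early arrays. Acan, the proteoglycan aggrecan, read 48.4, 44.4, 177 and 250.2, and Ccn2, a connective tissue growth factor, read 4280.3, 3727, 11078 and 14896. Members without a call included Ccn3, at 4688, 4069, 4771 and 3458, and Igfbp5, at 3066, 2771, 2289 and 2559.

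Markers of resting adventitial fibroblasts showed smaller differences: 1 of 18 was called, Cd248 (endosialin), at 166, 185, 372 and 540.1, and the median was 0.20. The share called higher over all tested genes was 3.79%. Pdgfra read 620.0, 408, 925 and 773 and Dpt, dermatopontin, 1497, 1161, 2608 and 2216. Of 10 small leucine-rich proteoglycans, which bind collagen fibrils, Lum (963, 539.7, 3867 and 1781) and Aspn (203, 116, 528 and 531) were called higher, whereas Prelp read 1199, 783, 658 and 467. Within this family the members thus differed in sign.

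**Figure D3:**
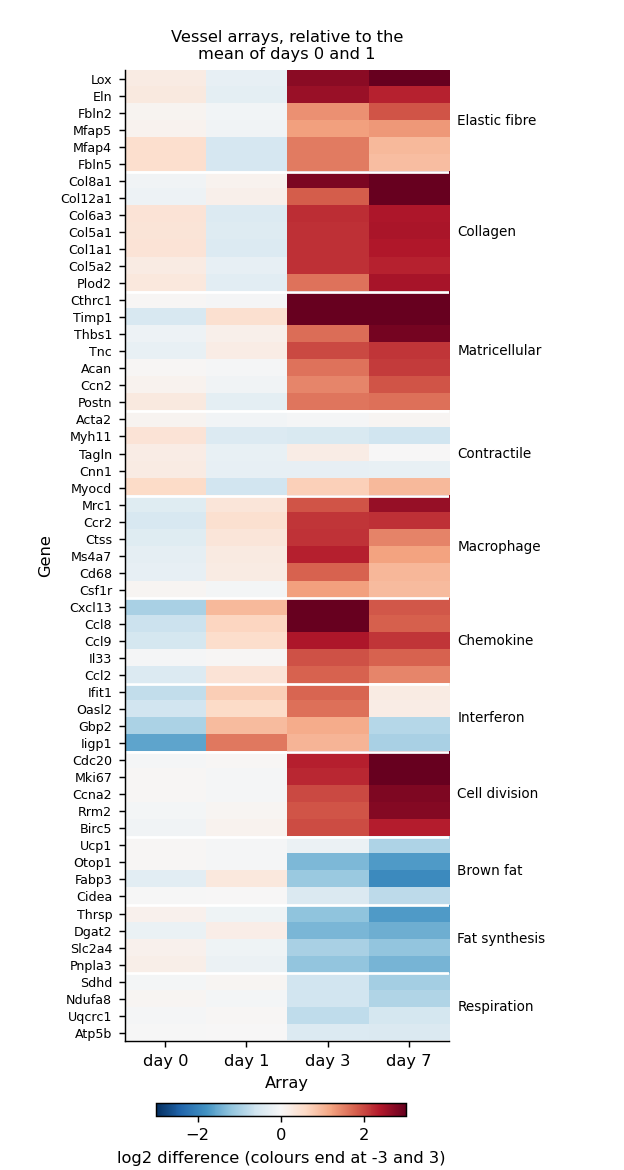
Log2(intensity + 16) on each vessel array relative to the mean of the day 0 and day 1 arrays, for members of 11 gene groups chosen for display; red is higher and blue lower, and the colours end at -3 and 3. Matrix, macrophage and cell division genes are red on days 3 and 7, contractile genes are pale throughout, interferon genes are red on days 1 and 3, and fat and respiration genes are blue late.

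Proteases and their inhibitors were mixed, with 8 of 23 called higher, against 3.79% of all tested genes, and a median of 0.58. Besides Timp1, Mmp14, the membrane protease that activates Mmp2, read 263, 248, 954 and 964, a difference of 1.84, or 1.19 over its 3 probe sets. Mmp2, gelatinase A, read 515, 328, 1335 and 752, highest on day 3. Mmp9, gelatinase B, read 38.8, 53.3, 57.9 and 66.1 (difference 0.34, or 0.16 over both probe sets), and Timp4 read 1295, 1665, 1442 and 1277, neither called. Adamts12, at 1.24, was called on its chosen probe set and stood at 0.62 over both probe sets.

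Of 19 TGF beta pathway genes, 2 were called, against 3.79% of all tested genes called higher. Tgfb2, a ligand, read 132, 103, 251 and 382, and Ltbp1, which holds the latent ligand in the matrix, read 594, 309, 869.6 and 1127, a difference of 1.18 that was 0.70 over its 3 probe sets. Tgfb1 read 62.4, 55.5, 79.8 and 82.7 and the inhibitory Smad7 219.7, 163, 229.7 and 267, with differences of 0.38 (0.10 over both probe sets) and 0.36. The receptors Tgfbr1 and Tgfbr2 differed by 0.51 and 0.60, or 0.18 and 0.21 over their probe sets, and were not called.

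The contractile apparatus did not follow the matrix. Of 29 smooth muscle contractile genes tested, 0 were called higher and 0 lower, with a median of 0.01. Relative to day 0 the list median was -0.58 on day 1, -0.38 on day 3 and -0.26 on day 7. The early mean thus includes a low day 1 array, and every treated array lay below day 0. Acta2, smooth muscle actin, read 15048, 13418, 13925 and 14711, and Tagln, transgelin, read 10257, 7587, 10253 and 8937. Both stayed within a narrow range, and day 1 was the lowest for each. Myh11, given above, was highest on day 0 and differed by -0.53. Myocd, the coactivator of contractile genes, read 389, 169, 432 and 525, a difference of 0.85 (0.48 over both probe sets), and Tpm1, a tropomyosin that heart muscle also makes, read 3728, 1727, 858 and 3028 (difference -0.65, or -0.21 over its 4 probe sets) with the day 3 dip of the heart markers.

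Endothelial identity genes were likewise without a call: 0 of 22 higher, 0 lower, median -0.07. The largest differences were those of Emcn, a sialomucin of veins and capillaries, at 424, 399, 278 and 244, and Kdr, the main VEGF receptor, at 648, 558, 377 and 434. Endothelial activation genes, in contrast, held 4 called members of 11, against 3.79% of all tested genes called higher, with a median of 0.69. Vcam1, an adhesion molecule for leukocytes, read 132, 189, 572 and 491, a difference of 1.65, or 1.05 over its 3 probe sets. Selp, P-selectin, read 160.4, 159.6, 469.6 and 472, and Esm1, a proteoglycan of growing endothelium that passed the filter through the late arrays alone, read 9.71, 20.7, 75.2 and 211. Aplnr, the apelin receptor, read 328, 91.3, 404 and 481, lowest on day 1, a difference of 1.25 that was 0.70 over both probe sets.

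Of 19 genes of endothelin, nitric oxide and feedback signalling, 1 was called, against 3.79% of all tested genes called higher. This was Ptgs2, the inducible cyclooxygenase, at 42.3, 54.7, 309 and 972, a difference of 3.14 that was 1.85 over both probe sets. The day 7 array lay 1.60 above the day 3 array on the log2 scale, the largest such step among called genes. Nos3, the endothelial nitric oxide synthase, read 153, 168, 131 and 116 and Edn1, endothelin 1, read 92.1, 83.5, 118 and 194, with differences of -0.34 and 0.69.

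No gene of the renin-angiotensin system was called among 9 tested of 13 measured. Agtr1a, the main angiotensin II receptor of the mouse vessel, read 107, 131, 306 and 110.0, so that only day 3 stood apart. Ace, the converting enzyme, read 259, 167, 401 and 261, and Agt, angiotensinogen, read 98.8, 103, 117 and 105. Enpep, an aminopeptidase that degrades angiotensin II, read 371, 593, 839.6 and 863, the largest difference of the list at 0.84, with both late arrays above both early ones but under 2-fold. Agtr1b (13.04, 12.7, 14.4 and 13.7) and Agtr2 (5.38, 5.97, 6.31 and 6.68) were too low to be tested.

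Among 18 NADPH oxidase and antioxidant genes, 3 were called higher, against 3.79% of all tested genes. Cybb, the catalytic subunit of the phagocyte oxidase, read 125, 167, 601 and 318, and its cytosolic partner Ncf1 read 92.98, 123, 457 and 394. Over all probe sets of each their differences were 0.94 and 0.98, short of 2-fold, which left 1 member called. Hmox1, haem oxygenase 1, read 194, 253, 433 and 653. Nox4, the oxidase subunit of vascular cells, read 1758, 714, 1757 and 995 and was not called. Cybb and Ncf1 are also genes of phagocytes, and they moved with the macrophage list described next.

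Monocyte and macrophage markers were the most widely raised list of immune cells. Of 31 tested, 23 were called higher and 1 lower, against 3.79% and 0.88% of all tested genes, with a median of 1.42. Mrc1, the mannose receptor of tissue macrophages, read 132, 228, 686 and 1155, a difference of 2.25. Ccr2, the receptor that draws monocytes from blood, read 85.4, 183, 611 and 633, a difference of 2.17 that was 0.92 over its 4 probe sets. Ctss, cathepsin S, read 876, 1479.8, 5136 and 3230.1, and the general marker Csf1r read 1772, 1645, 4014 and 3329, a difference of 1.09 (0.98 over its 3 probe sets). All 4 genes were called, which requires both late arrays above both early ones, and day 1 stood above day 0 for all but Csf1r. Adgre1, a further defining macrophage marker, read 125, 198, 438 and 190 and was not called, with day 7 below day 1.

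Members peaked on different days. Fcgr1 (28.6, 94.9, 343 and 146), Ms4a7 (87.1, 135, 612 and 273) and the complement gene C1qb (417, 703, 2624 and 1052) were highest on day 3, whereas Mrc1, Cd163 (291, 440.4, 725 and 1281) and F13a1 (709, 1047, 2018 and 3155) were highest on day 7. The differences of Fcgr1 and Ms4a7, 1.78 and 1.77, were 0.98 and 0.93 over both probe sets of each. Retnla, a resistin-like protein of alternatively activated macrophages, went the other way at 778, 1076, 738 and 232, a difference of -1.11 carried by day 7. Without the day 3 array 15 of 31 were called higher.

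Chemokines and cytokines held 11 called members of 26, all higher, against 3.79% of all tested genes, with a median of 0.37. Cxcl13, which attracts B cells, read 217, 885, 4324 and 1651, and the monocyte chemokines Ccl8 and Ccl2 read 206, 527, 2991 and 1191 and 33.1, 70.5, 207 and 165. These 3 were highest on day 3 and already above day 0 on day 1. Il33, an alarm cytokine of stromal cells, read 270.2, 288, 1099 and 986, with no step on day 1, and Cxcl12, made by fibroblasts, read 414, 598, 1585 and 1578, a difference of 1.64 that was 0.56 over its 3 probe sets. Il6 read 5.48, 25.4, 59.7 and 127, highest on day 7, while Tnf read 34.8, 39.2, 30.9 and 28.7 and Il1b 33.8, 66.7, 63.3 and 50.8, neither called.

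Lymphocyte and granulocyte lists showed isolated calls. Ighm and Jchain, immunoglobulin genes of B and plasma cells, read 1285, 626, 4308 and 2073 and 179, 181, 732 and 298, highest on day 3, and the difference of Ighm, 1.72, was 0.43 over its 11 probe sets. The B cell markers Cd79a (33.5, 36.2, 33.02 and 38.2) and Ms4a1 (50.6, 96.2, 102 and 65.7) were not called. Thy1, the only T cell list member called, is also made by fibroblasts and neurons and read 147, 176, 460.5 and 598, while Cd3e read 118, 108, 109.5 and 102. Lcn2, a neutrophil and acute phase protein, read 102, 998, 1211 and 1479.7 and had nearly reached its late level on day 1, whereas the neutrophil genes S100a8 and S100a9 peaked on day 1 at 1026 and 969.7.

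MHC class II genes were highest on day 3. H2-Ab1 read 704, 661, 1959 and 798, and Cd74, the invariant chain, read 469, 531, 1417 and 610.2; 0 of 10 members were called, and 5 would have been without the day 7 array. Interferon-stimulated genes had a time course of their own that the late against early comparison does not show. Their median relative to day 0 was 1.05 on day 1, 1.55 on day 3 and 0.30 on day 7, and 0 of 27 were called. Iigp1, an immunity-related GTPase chosen after its values were seen, read 405, 3730.1, 2542 and 622, and Ifit1, an antiviral RNA-binding protein, read 60.02, 195, 409 and 134. Without the day 1 array 13 of 27 would have been called higher, and without the day 7 array 11.

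Cell division genes held calls in 1 direction, with a list median of 0.92 on day 3 and 1.39 on day 7 relative to day 0. Of 29 tested, 17 were called higher and 0 lower, against 3.79% and 0.88% of all tested genes, with a median of 1.10. Cdc20, which activates the ubiquitin ligase of anaphase, read 36.6, 38.4, 252 and 434, a difference of 2.70 that was 1.37 over its 3 probe sets, and Mki67, the proliferation antigen Ki-67, read 44.3, 41.97, 267 and 494, a difference of 2.69. The early arrays lay within a few units of each other for both. Ccna2, cyclin A2, read 45.9, 43.6, 222 and 404, and Rrm2, a ribonucleotide reductase subunit, read 49.6, 54.7, 236 and 440.1, a difference of 2.32 (1.29 over its 3 probe sets). The replication licensing genes were less uniform: Mcm5 read 63.6, 79.1, 178 and 347 and was called, at 1.61 (0.76 over its 3 probe sets), whereas Mcm2 (187, 170.0, 217 and 249) and Mcm3 (96.4, 103, 109 and 144) were not. The members' intensities are low, and the count was 9 with 64 added before the log in place of 16, when 2.26% of all tested genes were called higher. It was 10 with the mean of all probe sets, and 2 of the 17 passed the filter through the late arrays alone.

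The promoters of the 31 lists with at least 8 tested members in the promoter table were searched for 19 short elements, and the pair shown for the cell division genes was chosen after all had been looked at. These are the cell cycle homology element, TTTGAA, and the CCAAT box, both known from genes of the G2 and M phases, each sought on both strands in the 300 bases from 250 before to 50 after the RefSeq start (mouse build GRCm38.p6). Of 26 tested cell division genes with a promoter in the table, 14 held TTTGAA and 21 held CCAAT, against 14.4% and 41.9% of all 11050 tested genes with a promoter. Other lists held them too: CCAAT was in 18 of 21 heat shock and folding promoters and 11 of 14 cholesterol promoters, and TTTGAA in 4 of 8 small proteoglycan promoters. A match is a description of the letters and not evidence of binding. The other elements were TGAGTCA for AP-1 and its looser form TGANTCA, the CArG box of serum response factor, the E2F spellings TTTGGCGC, then TTTCCCGC, then GGCGGGAA, the cyclic AMP element TGACGTCA, the ERR element TCAAGGTCA with its shorter form CAAGGTCA, the TEAD spellings GGAATG and also ACATTCCA, the SMAD element CAGACA, the REST stretch TTCAGCACC, and the longer elements of NF-kappaB, PPAR, interferon response and NRF1. A looser or shorter form also matches wherever the full one does. The SMAD element was in 0 of 26 cell division promoters and 7 of 22 collagen promoters, against 19.8% of all. The CArG box was in 4 of 24 smooth muscle contractile promoters, against 1.59% of all. TGAGTCA was in 6 of 20 chemokine and cytokine promoters, against 5.0% of all. These lines too were picked after all had been looked at.

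The 200 bases before the start are shown for the 4 genes with the largest differences that hold both elements, 5′ to 3′ on the strand of the gene, with both elements and their reverse complements in capitals. They show where the elements lie before the start. The difference of Top2a, 1.74, was 0.53 over its 3 probe sets. The stretches lie at chr4:118437344-118437543 (minus strand) for Cdc20, chr7:135716380-135716579 (minus strand) for Mki67, chr10:69352913-69353112 (minus strand) for Cdk1 and chr11:99024190-99024389 (minus strand) for Top2a, and the sequences are those of RefSeq.
Cdc20: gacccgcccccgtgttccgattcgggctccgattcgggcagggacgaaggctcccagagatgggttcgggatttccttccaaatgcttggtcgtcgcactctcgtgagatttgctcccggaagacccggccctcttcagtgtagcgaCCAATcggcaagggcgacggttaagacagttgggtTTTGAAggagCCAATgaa
Mki67: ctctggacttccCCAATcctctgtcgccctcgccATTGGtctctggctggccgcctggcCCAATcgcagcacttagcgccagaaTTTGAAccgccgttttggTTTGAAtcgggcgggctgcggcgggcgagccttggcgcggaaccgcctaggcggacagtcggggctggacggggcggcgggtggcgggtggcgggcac
Cdk1: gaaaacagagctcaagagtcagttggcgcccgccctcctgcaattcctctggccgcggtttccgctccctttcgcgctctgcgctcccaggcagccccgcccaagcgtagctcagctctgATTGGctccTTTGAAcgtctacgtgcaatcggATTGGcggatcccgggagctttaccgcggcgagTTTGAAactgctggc
Top2a: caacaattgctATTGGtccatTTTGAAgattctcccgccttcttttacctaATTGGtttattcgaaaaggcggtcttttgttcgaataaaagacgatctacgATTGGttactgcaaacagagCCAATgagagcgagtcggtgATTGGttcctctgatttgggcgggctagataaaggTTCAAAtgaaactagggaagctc

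**Figure D4:**
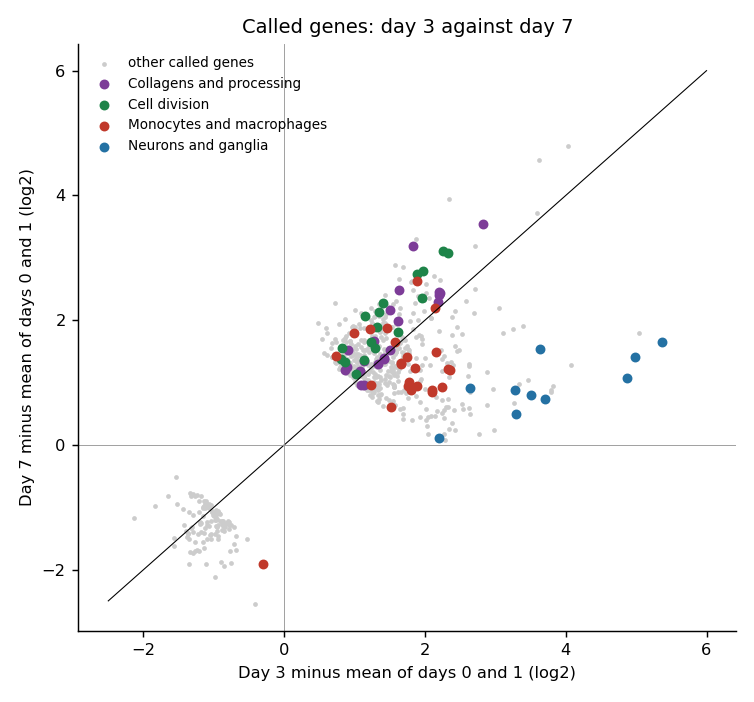
Day 3 against day 7, each relative to the mean of days 0 and 1 on the log2(intensity + 16) scale, for the 642 called genes; colours mark called members of 4 lists and the line marks equal change. Cell division genes lie on or above the line, macrophage genes mostly below it, and neuron and ganglion genes far below it, with day 3 far above day 7.

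Early response and stress genes added few calls, and over all tested genes 3.79% were called higher and 0.88% lower. Of 24 immediate early genes, Socs3, an inhibitor of cytokine signalling, and Fosl2, an AP-1 subunit, were called, at 143, 247, 319.7 and 971 and 202, 195, 353 and 556, and the Fosl2 difference of 1.10 was 0.55 over both probe sets. The day 7 array stood apart for Socs3. Of 19 glucocorticoid-responsive and metallothionein genes 5 were called, among them Fkbp5, a chaperone of steroid receptors, at 209, 174, 538 and 739 (difference 1.65, or 0.82 over its 3 probe sets), and Zbtb16, a transcription factor, at 228, 117, 358 and 474. With the mean of all probe sets 2 were called. Of 24 heat shock and endoplasmic reticulum folding genes 0 were called, and the largest difference was that of the disulfide isomerase Pdia3, at 681, 914, 1245 and 1683. The clock output gene Dbp read 1255, 843, 710.1 and 353 and Hlf 417, 526, 214 and 181, both called lower, although Hlf went from -1.19 to -0.87 over both probe sets. The transcriptional repressor Nfil3 read 69.02, 84.8, 149 and 281 and was called higher. The labels give no hour of collection, so time of day was not tested.

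Brown fat and fat synthesis genes held calls in 1 direction, lower, in a minority of members. Of 13 brown fat markers 4 were called lower and 0 higher, with a median of -0.64, and of 24 adipocyte and fat synthesis genes 5 were called lower, 0 higher, with a median of -0.53. Of all tested genes 3.79% were called higher and 0.88% lower. Otop1, a proton channel of brown fat, read 927, 869, 344 and 264, a difference of -1.53, and Fabp3, a fatty acid carrier of heart and brown fat, read 6637, 10258, 3796 and 2188. Thrsp, a regulator of fat synthesis, read 10259, 8514, 4013 and 2868, and Dgat2, which makes triglyceride, read 2549, 3390.0, 1119 and 1049.7. Slc2a4, the insulin-responsive glucose transporter, read 2607, 2185, 1205 and 1047, a difference of -1.08 (-0.99 over both probe sets). All 5 genes were called, and a call lower requires both late arrays below both early arrays.

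All 24 tested adipocyte and fat synthesis genes had a negative difference. In 19 of them both late arrays lay below both early ones, a pattern of 29.4% of all tested genes. Some differences were small on the brightest probe set: Fabp4 read 20215, 21224, 20838 and 19442 and Lpl, lipoprotein lipase, 18030.1, 18536, 16139.5 and 14926. The Fabp4 difference of -0.04 was -0.52 over its 4 probe sets, and the Lpl difference of -0.24 was -0.36 over both. Ucp1 and Adipoq, given above, differed by -0.56 and -0.25. Fasn, fatty acid synthase, read 10075, 4446, 3032 and 4669, with the fall already on day 1. The summed intensity of the brown fat list was 73666, 74149.5, 51681 and 41143 on days 0, 1, 3 and 7, lower on both late arrays, and the part of fat content in the falls was not tested.

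Mitochondrial genes shifted in the same direction by smaller amounts. All 33 respiratory chain and ATP synthase subunits tested had both late arrays below both early arrays, a pattern of 29.4% of all tested genes, but 0 reached 2-fold and the median was -0.53. Sdhd, of complex II, read 4309.8, 4618, 3002 and 2207, and Atp5b, of the ATP synthase, read 9857, 9873, 7413 and 7301. Of 28 fatty acid oxidation genes 3 were called lower (Acot2, Fabp3 and Ppara), against 0.88% of all tested genes, with a median of -0.68. Ppara, the nuclear receptor that drives this programme, read 965, 1444, 513 and 486, and Acot2, a mitochondrial thioesterase, read 1339, 2339, 712 and 521. Cpt1a, the liver form of the carnitine transferase, read 501, 389.9, 792 and 694, a difference of 0.72 (0.46 over its 3 probe sets), and was the one member of positive sign. The summed brown fat intensity above was lower on both late arrays, while Myh6 was low on day 3 and high on day 7. The part of fat and heart muscle content in these differences was not tested.

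The largest difference among genes called lower was that of Ppp1r3b, a glycogen-targeting subunit of protein phosphatase 1, at 1666, 1281, 321 and 640.5, a difference of -1.65. Sbk1, a kinase, read 1069, 999.8, 395 and 263, and Acot11, a thioesterase of brown fat, read 2357, 1443, 615 and 646. Inmt, a methyltransferase, read 1400.2, 933, 857 and 182, a difference of -1.48 carried by day 7. Insig1, which holds back cholesterol synthesis, read 547, 599, 255 and 280.1 and was the only cholesterol gene called of 18. Calls lower made up 0.88% of all tested genes.

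**Figure D5:**
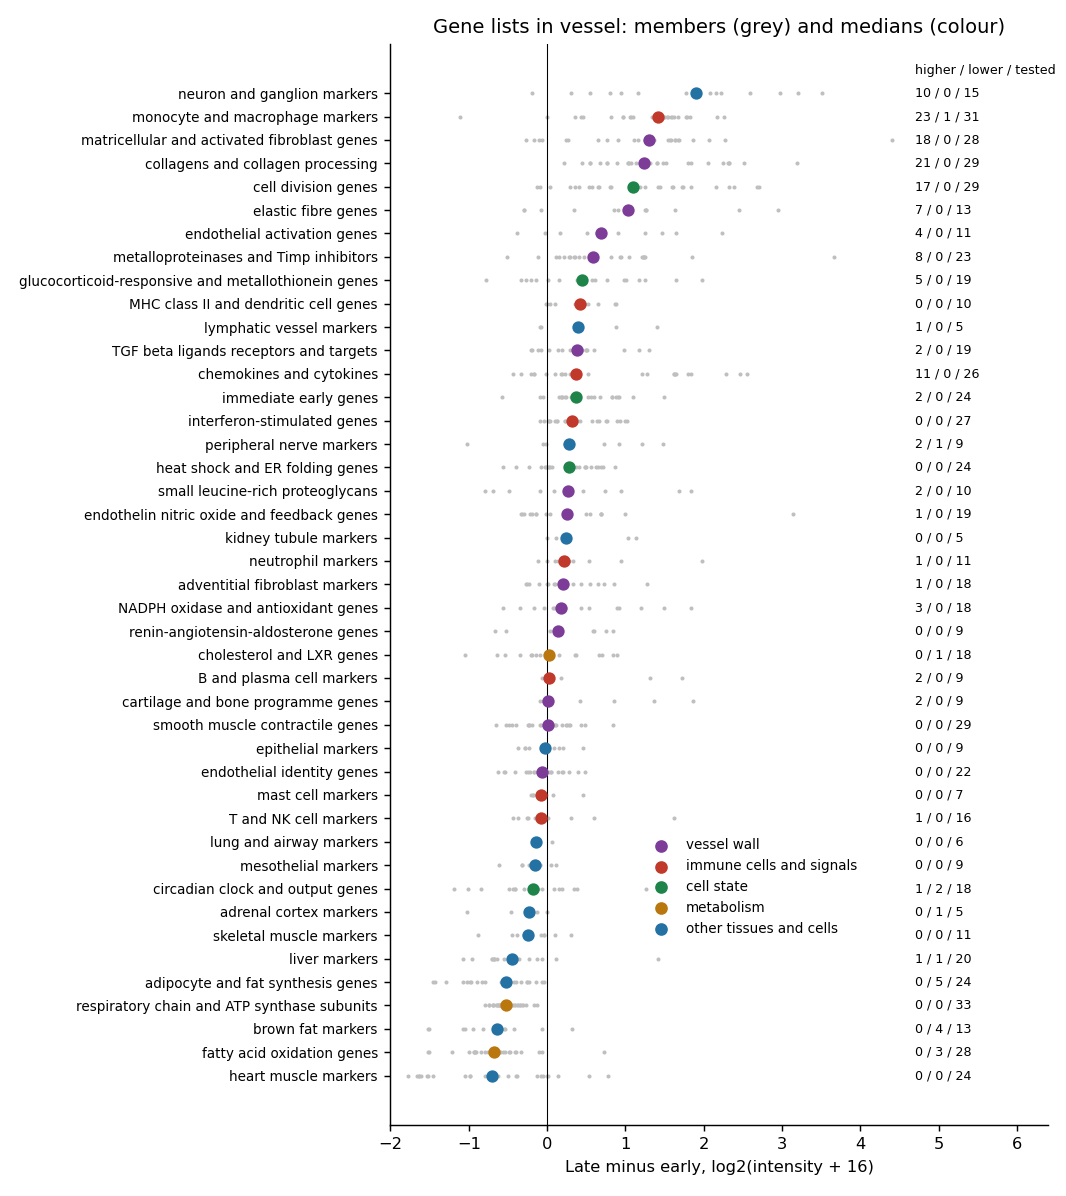
Late minus early difference on the log2(intensity + 16) scale for every tested member (grey) and the median (coloured by kind) of each gene list with at least 5 tested members; the figures at the right give members called higher, called lower and tested. Neuron, macrophage, matricellular, collagen, cell division and elastic fibre lists have medians above 1, and the fatty acid oxidation and heart muscle lists have the lowest medians.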

How the data were processed

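Total RNA of the 4 vessel samples was hybridized to Affymetrix arrays. Linear-scale intensity was deposited for every probe set of each array. Affymetrix Expression Console produced it, per the submitters' processing notes, with algorithm, version and settings not given in the sources used here. Vessel array medians ran from 35.7 to 37.0, against 35.2 to 37.8 over all 30 arrays, so the arrays shared a scale and were not normalized again. The files give no depth, and the number of arrays limits the precision.

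The platform holds 45101 probe sets, of which 64 are controls, 932 name several genes and 9160 name none; the 34945 with 1 symbol were used. Entrez identifiers tied 34741 of these to RefSeq, and 0 symbols changed. Where a gene had several probe sets (9010 of 18193 genes), the brightest on average over the series stood for it. Tested genes lay above their array's 40th percentile on 2 or more of the 4 arrays. Differences are on the log2(value + 16) scale, which understates changes of low genes. A gene could pass this filter through the late arrays alone, as 50 of the 521 called higher did, so counts of called members are descriptions and support nothing.

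The comparison, the 46 gene lists and the alternatives were chosen with earlier results of these data known. The rule for named genes took the 15 largest rises and falls, the 10 largest outside lists of other tissues, up to 4 called members of each list (or 2 where none was called), the 5 largest day 7 minus day 3 differences either way, and Agtr1a, Agtr1b, Agtr2, Ace, Agt, Ren1, Myh6, Alb and Ucp1; Ren1 is not analysed here. Other genes named were picked after their values were seen. Of 95 genes of that rule that were called, 72 kept the call with the mean of all probe sets.

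As alternatives, limma was fitted to 2 arrays against 2, and to all 30 arrays with the spread of heart, kidney and brain replicates. Both fits were tested on simulated data. Tools were R 4.3.3, limma 3.58.1, data.table (version 1.17.8), Python 3.11.15, pandas 2.3.3, numpy 2.4.6 and matplotlib 3.10.9.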

Additional observations from a re-analysis of the deposited data

How the results depend on the processing

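With 1 array per day, replicate error within a day cannot be measured, and low intensities limit what can be seen of weak genes. The 521 genes called higher and 121 called lower became 311 and 62 with 64 added before the log, 1287 and 650 at 1.5-fold, and 68 and 0 at 4-fold. The mean of all probe sets gave 321 higher and 81 lower. A rule added after the data were seen, that every late array be 2-fold beyond every early array, gave 206 and 19. With a single array left out the counts ran from 551 to 614 higher and from 150 to 183 lower; of the 521 and the 121, 452 and 98 were kept without day 0, 444 and 78 without day 1, 407 and 99 without day 3, and 417 and 71 without day 7, and 262 and 35 were called whichever array was left out. The limma fit of 2 arrays against 2, which treats days as replicates, called 240 genes higher and 119 lower at an adjusted p under 0.05. The limma fit of all 30 arrays, which assumes that lone vessel arrays vary like replicates of other tissues, called 1576 higher and 1310 lower and included 489 of the 521 and 108 of the 121. Normalizing again by quantiles moved the median of all genes from -0.004 to -0.03 and gave 473 and 143, and dropping the lists of other tissues gave 506 and 109. The share of called genes that were higher was 81.2%, against 66.4% at 1.5-fold, all of them at 4-fold and 91.6% under the added rule. No named gene that was called changed sign. Leaving out 1 array or changing the added value cannot change it, because the rule for a call fixes the order. Only the mean of all probe sets and the quantile normalization could have changed it. No paired analysis was possible because each vessel day has 1 array with the same replicate number.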

Other observations

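Traces of further tissues differed between the arrays. The kidney proximal tubule gene Kap read 138, 678, 478 and 1024 on days 0, 1, 3 and 7, and Umod, of the thick ascending limb, read 9.53, 53.7, 40.8 and 116, a difference of 1.04, or 0.56 over both probe sets. Star, of steroid-making cells, read 33.0, 81.1, 16.01 and 20.2, a difference of -1.02, or -0.56 over its 3 probe sets. Slc4a1, the anion exchanger of red cells, read 40.3, 73.8, 106 and 258 and was called higher, at 1.36, but its difference over 3 probe sets was 0.82, short of 2-fold, while the red cell gene Alas2 read 69.6, 158, 143 and 229. Scgb3a2, a secretoglobin of the airway, read 127 on day 1 and between 10.8 and 13.2 on the other days.

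Genes outside the gene lists, picked after their values were seen, included secreted growth regulators. Fst, follistatin, read 115, 162, 590.0 and 747 on days 0, 1, 3 and 7. Bmper, which binds bone morphogenetic proteins, read 35.1, 64.05, 243 and 332. Ereg, an EGF receptor ligand that passed the filter through the late arrays alone, read 13.6, 10.9, 86.2 and 121. These 3 were picked with their values known, so late arrays above early ones follow from the choice. The plasma protein gene Serpina3n read 189.6, 950.2, 1650.1 and 1779, with day 1 already above day 0.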
